A study of Mus musculus with 9 samples.

Results

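Transcript levels of 9 genes of fatty acid breakdown were followed in mouse liver across 3 contents of dietary iron. The 9 are Ehhadh, Hsd17b4, Acaa1a and Acaa1b, which encode enzymes of peroxisomal beta-oxidation, and Cyp4a10, Cyp4a14, Cyp4a12a, Cyp4a31 and Cyp4a32, which encode fatty acid omega-hydroxylases of the endoplasmic reticulum. They were taken by gene symbol, 9 of the 23420 symbols in the count tables, and all 9 were among the 13020 genes left by the low-count filter. The set was selected on the fold changes that these genes showed on the high-iron diet in earlier results of these data. Their own differences that involve that diet are therefore descriptions, and no p-value is printed for them. Where it is said which of them fell under the threshold of adjusted p, this is no test of those differences. Other genes are tested in all 3 comparisons, but their lists were also chosen with earlier results of these data known. The comparison of the low-iron with the sufficient diet was tested, although its sufficient-iron libraries are the ones that the high-iron libraries are set against. Values that were low by chance in those libraries would raise both differences.

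Peroxisomes shorten very long-chain and dicarboxylic fatty acids, which mitochondria handle poorly. After a first oxidation, the bifunctional enzymes encoded by Ehhadh and Hsd17b4 add water and oxidise the product, and the thiolases encoded by Acaa1a and Acaa1b release acetyl-CoA. Cyp4a enzymes hydroxylate the far end of a fatty acid, the step that leads to dicarboxylic acids. In mouse liver many of these genes are known targets of the nuclear receptor PPAR-alpha, which binds DNA together with RXR, and Cyp4a12a is known for higher expression in males.

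The mice were wild-type C57BL/6 males (strain label C57/BL6), moved at 5 weeks of age to AIN-93G, a purified feed without soy. The iron content per kg of feed was 2.5 mg (low iron), 37.5 mg (sufficient iron) or 1000 mg (high iron). Each diet was eaten for 50 days by 3 mice, whose livers were collected at 12 weeks. Total liver RNA was sequenced, 1 library per mouse, and hemojuvelin knockout mice named in the protocol are not analysed here. Each library goes by its diet and the number that its title carries: 1, 5 and 9 for low iron, 2, 6 and 10 for sufficient iron, and 4, 8 and 12 for high iron.

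The paralogs among these genes differ by few bases, which bears on every count below. The first 60 coding bases are shown for the 2 groups of near-identical copies, from the GENCODE M21 annotation of GRCm38, with capitals where a gene differs from the first gene of its group.
Cyp4a10, chr4:115518322-115518381, plus strand: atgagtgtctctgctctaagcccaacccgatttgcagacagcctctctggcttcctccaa
Cyp4a31, chr4:115563717-115563776, plus strand: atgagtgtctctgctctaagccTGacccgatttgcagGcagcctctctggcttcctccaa
Cyp4a32, chr4:115600975-115601034, plus strand: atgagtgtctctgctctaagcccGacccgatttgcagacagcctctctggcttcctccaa
Acaa1b, chr9:119156935-119156994, minus strand: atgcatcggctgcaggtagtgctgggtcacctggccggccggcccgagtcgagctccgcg
Acaa1a, chr9:119341515-119341574, plus strand: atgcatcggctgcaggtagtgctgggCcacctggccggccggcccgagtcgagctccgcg

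Over these 60 bases Cyp4a31 differed from Cyp4a10 at 3 positions and Cyp4a32 at 1, and Acaa1a differed from Acaa1b at 1. Over the whole coding sequence Cyp4a10 was 96.6% identical to Cyp4a31 (52 differences in 1527 bases) and 97.2% identical to Cyp4a32 (43 differences). Acaa1a and Acaa1b were 96.5% identical (44 differences in 1272 bases), and Cyp4a12a was 98.5% identical to Cyp4a12b, which is not among the 9 genes (23 differences in 1524 bases). Cyp4a14 stood further off, at 75.7% identity to Cyp4a10. Of all 50-base windows of each gene's longest coding transcript, 0% were shared with another gene for Ehhadh and Hsd17b4 and 0.245% for Cyp4a14. The shared part was 21.8% for Cyp4a31, 30.5% for Cyp4a10, 35.1% for Acaa1a, 46.2% for Acaa1b, 46.8% for Cyp4a32 and 48.9% for Cyp4a12a. Reads from shared stretches cannot be assigned to 1 gene, so the counts of these 6 genes are less certain than those of Ehhadh, Hsd17b4 and Cyp4a14, the more so for Cyp4a31 and Cyp4a32, which have few reads.

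The 5 Cyp4a genes lie in a cluster of Cyp4 genes on chromosome 4 that spans 541 kb from Cyp4x1 to Cyp4b1 (GRCm38). From left to right they are Cyp4a12a (chr4:115299046-115332815, plus strand), Cyp4a14 (chr4:115486200-115496142, minus strand), Cyp4a10 (chr4:115518264-115533649), Cyp4a31 (chr4:115563649-115579015) and Cyp4a32 (chr4:115600969-115621602), the last 3 on the plus strand. Acaa1b (chr9:119148023-119157093, minus strand) and Acaa1a (chr9:119339676-119350299, plus strand) both lie on chromosome 9, and Ehhadh is at chr16:21761287-21787807 on the minus strand.

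The promoters of Ehhadh, Acaa1b and Acaa1a are shown because these genes stood at very different distances between the diets. Each window runs from 250 bases before the RefSeq start to 50 bases from it on (GRCm38.p6), and capitals mark the CCAAT box on either strand.
Ehhadh, chr16:21787785-21788084, minus strand: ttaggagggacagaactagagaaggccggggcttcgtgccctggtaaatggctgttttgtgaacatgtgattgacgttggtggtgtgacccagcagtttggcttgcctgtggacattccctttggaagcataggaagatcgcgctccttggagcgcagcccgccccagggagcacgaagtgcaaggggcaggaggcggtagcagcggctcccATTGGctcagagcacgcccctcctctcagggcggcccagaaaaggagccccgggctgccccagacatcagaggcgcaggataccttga
Acaa1b, chr9:119157044-119157343, minus strand: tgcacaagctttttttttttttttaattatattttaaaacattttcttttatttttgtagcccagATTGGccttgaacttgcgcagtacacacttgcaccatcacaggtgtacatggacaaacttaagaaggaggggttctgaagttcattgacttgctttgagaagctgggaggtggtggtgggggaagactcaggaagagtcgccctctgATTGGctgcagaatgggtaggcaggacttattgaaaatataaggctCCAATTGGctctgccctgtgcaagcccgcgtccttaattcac
Acaa1a, chr9:119341044-119341343, plus strand: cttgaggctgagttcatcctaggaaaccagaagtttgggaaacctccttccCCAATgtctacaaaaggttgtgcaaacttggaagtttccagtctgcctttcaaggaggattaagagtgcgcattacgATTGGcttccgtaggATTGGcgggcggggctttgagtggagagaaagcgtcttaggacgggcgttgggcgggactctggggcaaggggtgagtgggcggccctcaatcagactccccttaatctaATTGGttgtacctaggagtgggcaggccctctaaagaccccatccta

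RefSeq promoter windows were matched for 4 of the 9 genes, these 3 and Cyp4a32. The element that PPAR-alpha and RXR are known to bind is a pair of AGGTCA half-sites in the same direction with 1 base between them. With up to 2 mismatches allowed on either strand, 0 of the 4 windows held it, against 3.86% of all 32851 windows, and with up to 1 mismatch 0 of 4 held it against 0.554%. This says only that these letters are not in these 300 bases. The CCAAT box, a common promoter motif searched for after the sequences had been seen, had 1 match in the Ehhadh and Cyp4a32 windows and 4 each in those of Acaa1b (2 of which overlap) and Acaa1a, and 37.4% of all windows held at least 1.

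The libraries held 22.0 to 33.8 M reads in genes (M, mega reads). Low-iron replicate 1 and high-iron replicate 12 stood apart, with 43.7% and 40.5% of their gene reads on Rn45s, the precursor of ribosomal RNA, where the remaining 7 libraries had 12.5% to 23.8%. These 2 libraries therefore measured all other genes at less depth. Levels are given as CPM, reads of a gene per mega reads of its library, on library sizes scaled by the trimmed mean of M-values. Of the hepatocyte markers, 7 of 7 were among the tested genes, Alb and Apoa1 among them, and they summed to 48155 CPM or more in each library. Of 5 kidney markers, Kap, Umod and Slc5a2 had 0 reads in all 9 libraries, Miox had 0 to 5 per library and Slc34a1 had 0 or 1. In RNA from whole liver, fewer cells of a type and less RNA per cell cannot be told apart.

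On the high-iron diet, transcripts of Ehhadh, Acaa1b, Cyp4a10, Cyp4a14, Cyp4a31 and Cyp4a32 were 1.86 to 3.34 times as abundant as on the sufficient diet, while Hsd17b4 stood at the same mean level on both. Acaa1a and Cyp4a12a were 1.34 and 1.42 times as abundant, and for Cyp4a12a the libraries of the diets overlapped. On the low-iron diet Ehhadh, Cyp4a14 and Cyp4a31 stood within 0.13 of the sufficient diet on the log2 scale, and Cyp4a10 and Acaa1b had higher means there that did not pass the test over all genes. The summed level of the 9 genes was 2380.3 ± 363 CPM (SD, n = 3) on sufficient iron, 2956 ± 348 on low iron and 5139 ± 871 on high iron.

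Ehhadh encodes the L-bifunctional protein of the pathway, whose hydratase and dehydrogenase act in turn. Its level was 316, 436 and 285 CPM in sufficient-iron replicates 2, 6 and 10, and 279, 452 and 373 CPM in low-iron replicates 1, 5 and 9. In high-iron replicates 4, 8 and 12 it was 1231, 1340.0 and 891 CPM. The 3 high-iron libraries lay above all 6 others, and the low-iron and sufficient-iron libraries overlapped. The log2 fold change was 1.74 ± 0.23 (SE) for high against sufficient iron, a 3.34-fold difference, and 1.65 ± 0.23 for high against low iron. Among the 9 genes Ehhadh had the largest log2 fold change in both comparisons with the high-iron diet.

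Hsd17b4 encodes the D-bifunctional protein, which catalyses the same pair of reactions with the opposite stereochemistry and acts on branched substrates and bile acid precursors. Its level was 280, 380.2 and 271 CPM with sufficient iron, 268, 388 and 362 CPM with low iron and 301, 318 and 310.1 CPM with high iron. The 3 diets overlapped, and the high-iron values lay inside the range of both other diets. The log2 fold change of high against sufficient iron was -0.00 ± 0.17, and its sign turned in 6 of 20 alternatives, which gave -0.10 to 0.17. The ratio of the reads of these paired enzymes sets them side by side within each library. Ehhadh reads per Hsd17b4 read numbered 1.11 ± 0.0512 (SD, n = 3) with sufficient iron, 1.08 ± 0.075 with low iron and 3.72 ± 0.738 with high iron. The lowest high-iron ratio was 2.87, in replicate 12, and the highest of the 6 others was 1.17, in low-iron replicate 5.

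The thiolases cut the shortened chain at the last step. Acaa1b, the more abundant copy, was at 638, 683 and 622 CPM with sufficient iron, at 848, 1003 and 774 CPM with low iron and at 1188, 1359.6 and 1058 CPM with high iron. The diets did not overlap for this gene, in the order sufficient, low and high. Its log2 fold change was 0.89 ± 0.14 for high against sufficient iron and 0.46 ± 0.14 for high against low iron. Acaa1a was at 57.1, 64.5 and 67.2 CPM with sufficient iron, at 68.3, 75.1 and 81.6 CPM with low iron and at 71.6, 93.4 and 87.2 CPM with high iron. Here too the sufficient-iron libraries were the lowest, but the other diets overlapped, and the log2 fold change of high against sufficient iron was 0.42 ± 0.13. There were 10.3 ± 0.98 Acaa1b reads per Acaa1a read with sufficient iron, 11.8 ± 2.02 with low iron and 14.4 ± 2.23 with high iron, with overlap between low iron and each other diet.

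**Figure D1:**
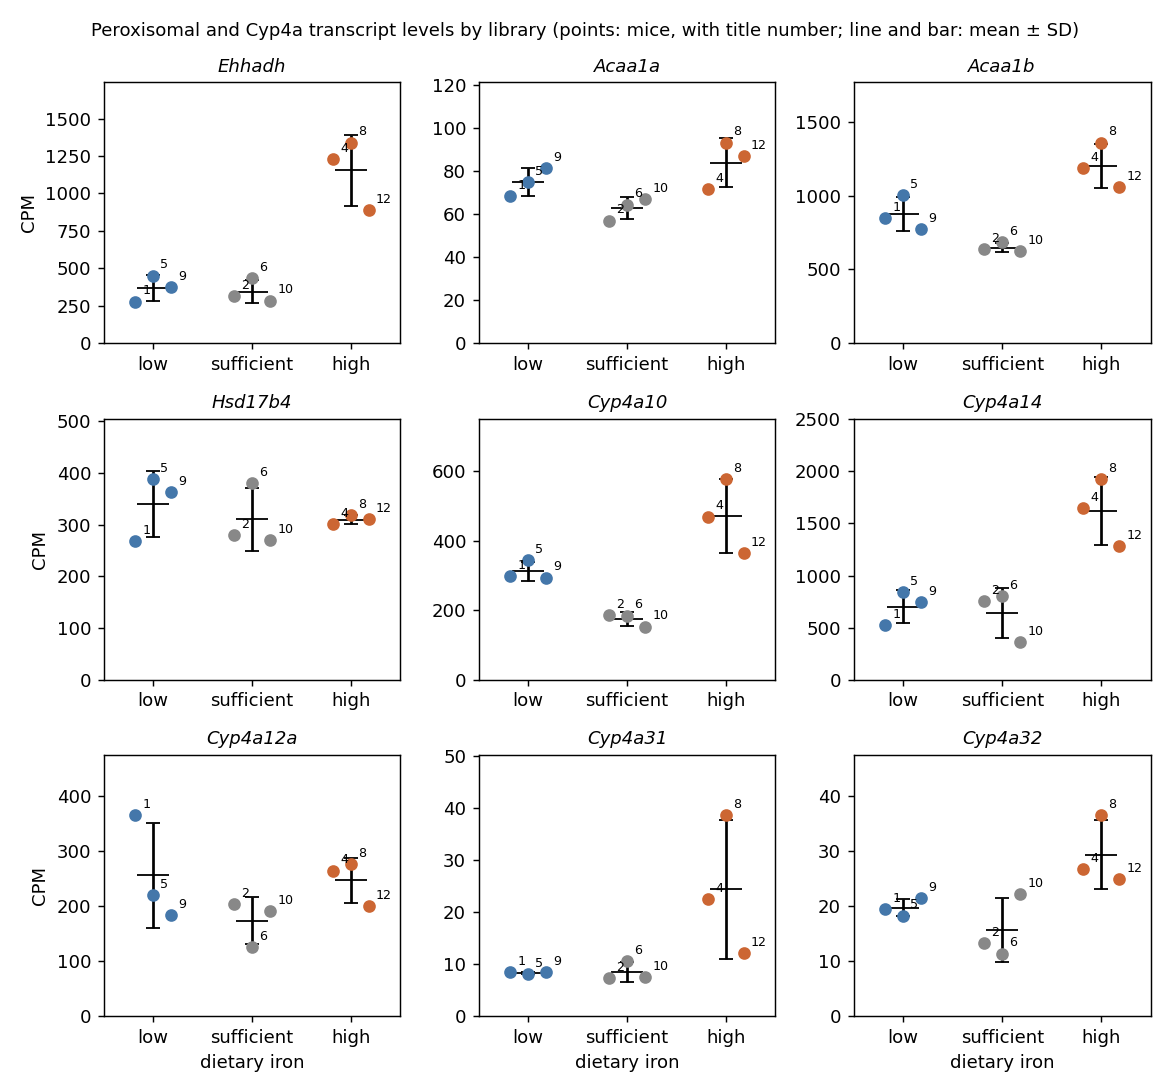
Level of each of the 9 genes in each library, in CPM on a linear axis from 0, by dietary iron (low, sufficient, high). Points are single mice with their title number, and the line and bar give the mean ± SD (n = 3). Ehhadh in the high-iron libraries, at 891 to 1340.0 CPM, lies above all other libraries, while Hsd17b4 overlaps in all 3 diets.

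Of the omega-hydroxylase genes, Cyp4a14 was the most abundant in reads. It was at 756, 801 and 365 CPM with sufficient iron, at 526, 837 and 743 CPM with low iron and at 1647, 1925 and 1282 CPM with high iron. The high-iron libraries lay above all others, and sufficient-iron replicate 10 was the lowest of the 9. Its log2 fold change was 1.34 ± 0.29 for high against sufficient iron and 1.20 ± 0.29 for high against low iron.

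Cyp4a10 was at 187, 185 and 153 CPM with sufficient iron, at 299, 344 and 294 CPM with low iron and at 469.8, 578 and 364 CPM with high iron. As for Acaa1b, the diets did not overlap and stood in the order sufficient, low and high. The log2 fold change was 1.43 ± 0.17 for high against sufficient iron, a 2.69-fold difference, and 0.59 ± 0.17 for high against low iron. There were 0.299 ± 0.105 Cyp4a10 reads per Cyp4a14 read with sufficient iron, 0.458 ± 0.095 with low iron and 0.290 ± 0.00901 with high iron. The sufficient-iron mean rests on replicate 10, with a ratio of 0.420 against 0.248 and 0.231 in replicates 2 and 6, so it overlapped with both other diets.

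Cyp4a31 and Cyp4a32, the near-copies of Cyp4a10, had few reads. Cyp4a31 was at 7.36, 10.6 and 7.51 CPM with sufficient iron, at 8.50, 8.08 and 8.42 CPM with low iron and at 22.5, 38.6 and 12.1 CPM with high iron. All 3 high-iron values were above the rest, though replicate 12 only narrowly, and the log2 fold change of high against sufficient iron was 1.53 ± 0.33. Cyp4a32 was at 13.3, 11.4 and 22.2 CPM with sufficient iron, at 19.4, 18.3 and 21.5 CPM with low iron and at 26.7, 36.5 and 24.9 CPM with high iron. Its high-iron values were again the highest 3, with a log2 fold change of 0.91 ± 0.23 against sufficient iron and 0.58 ± 0.24 against low iron.

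Cyp4a12a, the male-biased form, was at 205, 125 and 192 CPM with sufficient iron, at 365, 220.3 and 184 CPM with low iron and at 265, 276 and 201 CPM with high iron. The 3 diets overlapped, and the highest value of all came from low-iron replicate 1, in which Rn45s took the largest share. The log2 fold change was 0.51 ± 0.26 for high against sufficient iron (0.32 without sufficient-iron replicate 6) and -0.05 ± 0.26 for high against low iron. Its near-identical neighbour Cyp4a12b had a log2 fold change of 0.84 ± 0.36 for high against sufficient iron and 0.88 ± 0.36 for low against sufficient iron (adjusted p = 0.528 and 0.446). Cyp4a14 reads per Cyp4a12a read numbered 6.52 ± 0.39 with high iron, 3.99 ± 2.25 with sufficient iron and 3.09 ± 1.44 with low iron. Sufficient-iron replicate 6, at 6.38, fell inside the high-iron range of 6.22 to 6.96.

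**Figure D2:**
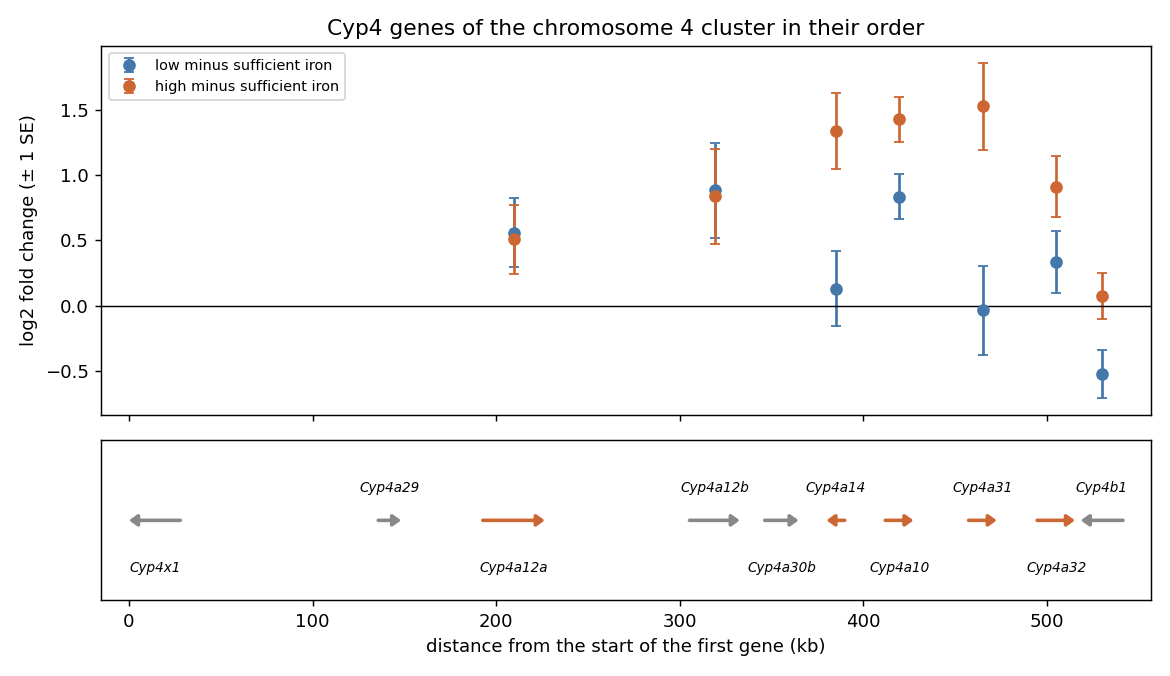
Log2 fold change (± 1 SE) of the Cyp4 genes of the chromosome 4 cluster against their position, as the distance in kb from the start of the first gene. The arrows below give each gene and its strand, orange for the 5 Cyp4a genes described here and grey for others, of which Cyp4x1, Cyp4a29 and Cyp4a30b carry no point because they were not among the tested genes. The high-iron values of Cyp4a14, Cyp4a10 and Cyp4a31, adjacent in the cluster, are 1.34 to 1.53, and that of Cyp4b1 at the end is 0.07.

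Against the sufficient diet, 7 of the 9 genes had high-iron libraries that were all higher, a state found in 8.99% of the 13020 tested genes. In the edgeR quasi-likelihood fit to all genes, Ehhadh, Acaa1b and Cyp4a10 had an adjusted p under 0.05, as did 0.215% of all genes, or 0.0998% as higher. Against the low-iron diet 6 genes had all high-iron libraries higher (7.59% of all genes), and Ehhadh had an adjusted p under 0.05 (0.507% of all genes, 0.161% as higher). Because the genes were selected on these same differences, the counts are no test of them and nothing is read from them. The median log2 fold change of the 9 was 0.91 for high against sufficient iron and 0.58 for high against low iron, with medians over all tested genes of -0.01 in both.

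The count of 3 against sufficient iron was 0 when high-iron replicate 4, high-iron replicate 8 or sufficient-iron replicate 10 was left out, 1 without sufficient-iron replicate 2 and 2 without sufficient-iron replicate 6 or low-iron replicate 9. The call of Ehhadh against low iron was lost without high-iron replicate 4, high-iron replicate 8 or low-iron replicate 9. Over the 20 alternatives, which include each library left out in turn, the log2 fold change against sufficient iron ran from 1.61 to 1.94 for Ehhadh, 0.79 to 0.97 for Acaa1b, 1.25 to 1.58 for Cyp4a10 and 1.05 to 1.53 for Cyp4a14. It ran from 1.02 to 1.84 for Cyp4a31, 0.72 to 1.24 for Cyp4a32, 0.33 to 0.52 for Acaa1a and 0.32 to 0.64 for Cyp4a12a. Against low iron that of Cyp4a12a ran from -0.24 to 0.42 and changed sign in 4 of the 20.

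**Figure D3:**
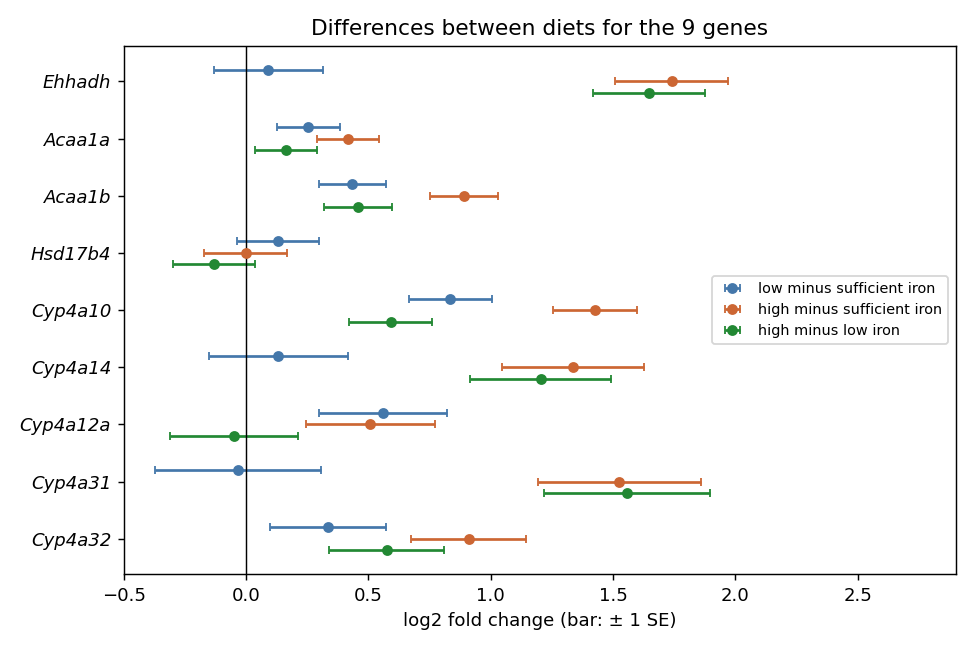
Log2 fold change of each of the 9 genes between diets, with bars of ± 1 SE from the fit to all 9 libraries. Blue is low minus sufficient iron, orange high minus sufficient and green high minus low. Cyp4a10 and Acaa1b stand to the right of 0 in all 3, whereas Ehhadh, Cyp4a14 and Cyp4a31 stand near 0 in blue alone, and Hsd17b4 stands within 0.13 of 0 in each.

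Setting low against sufficient iron asks how these genes stood when iron was scarce. Cyp4a10 stood at 312 ± 27.7 against 175 ± 19.1 CPM (SD, 3 mice per diet), which is 0.84 ± 0.17 (SE) on the log2 scale, and Acaa1b at 875 ± 117 against 648 ± 31.7 CPM (0.43 ± 0.14). Both had all 3 low-iron libraries above the 3 sufficient-iron libraries, yet each had an adjusted p of 0.446 by edgeR's quasi-likelihood test, with unadjusted p of 0.000502 and 0.00978. The third gene without overlap was Acaa1a, with a log2 fold change of 0.25 ± 0.13 (adjusted p = 0.464). Such a count of 3 of 9 stood beside 8.81% of all genes with every low-iron library higher. As the same sufficient-iron libraries entered the selection of the 9 genes, this count may be raised, and nothing is read from it.

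Of the 9 genes 0 passed the edgeR test, where 0% of all 13020 genes passed, and 2 had an unadjusted p under 0.05, against 11.2% of all genes (5.79% as higher). With DESeq2, which called 105 of all genes in this comparison, 2 of the 9 passed, Cyp4a10 (adjusted p = 0.000452) and Acaa1b (0.0312). Over all 20 alternatives the adjusted p of Cyp4a10 ran from 0.000452 to 0.835 and that of Acaa1b from 0.0312 to 0.835. Ehhadh (0.09 ± 0.22, adjusted p = 0.874), Cyp4a14 (0.13 ± 0.29, 0.855), Hsd17b4 (0.13 ± 0.17, 0.749) and Cyp4a31 (-0.03 ± 0.34, 0.976) had log2 fold changes smaller than their SE. Cyp4a32 had 0.33 ± 0.24 (adjusted p = 0.555), which became 0.67 without sufficient-iron replicate 10 and 0.14 without replicate 6 of that diet. Cyp4a12a had 0.56 ± 0.26 (adjusted p = 0.450), which became 0.21 without low-iron replicate 1, the library rich in Rn45s, and 0.37 without sufficient-iron replicate 6. The median over the 9 genes was 0.25 and over all genes -0.00. This median and the counts above may be raised by the shared sufficient-iron libraries, so nothing is read from their distance to all genes.

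Per kb of the longest coding transcript, levels of different genes can be set in an approximate order. These lengths, here and in the next paragraph, include stretches shared with another gene, whose reads may not have been counted. The shared part of the 50-base windows was 0% for Ehhadh and Hsd17b4 but 30.5% for Cyp4a10, 46.2% for Acaa1b and 48.9% for Cyp4a12a. Levels of the paralogs may thus be understated, and their place against Ehhadh, Hsd17b4 and Cyp4a14 is uncertain. With sufficient iron Acaa1b led with 384 ± 18.8 CPM per kb (SD, n = 3), ahead of Cyp4a14 with 257 ± 96.1, Ehhadh with 116 ± 26.8, Hsd17b4 with 116 ± 22.6, Cyp4a10 with 83.0 ± 9.04 and Cyp4a12a with 71.8 ± 17.5. Acaa1a (35.7 ± 2.96), Cyp4a32 (10.2 ± 3.79) and Cyp4a31 (3.38 ± 0.731) closed the order. The ranges over mice overlapped for Cyp4a14 and Ehhadh, for Ehhadh and Hsd17b4, and for Cyp4a10 and Cyp4a12a. Overlap here and in the next paragraph does not pair the genes within a mouse, so it does not show equal levels. Cyp4a14 overlapped with Ehhadh only because its lowest value (146.09, replicate 10) was under the highest of Ehhadh (146.26, replicate 6). Within every sufficient-iron library Cyp4a14 was above Ehhadh, whereas the order of the other pairs named differed between mice.

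With high iron Acaa1b stood at 712 ± 89.6 and Cyp4a14 at 648 ± 129 CPM per kb. Their ranges over mice overlapped, although Acaa1b was above Cyp4a14 within each mouse. Ehhadh at 387 ± 78.5 and Cyp4a10 at 223 ± 50.7 followed. Hsd17b4 (115 ± 3.19) and Cyp4a12a (102 ± 16.9) overlapped below them, and Acaa1a was at 47.7 ± 6.37, Cyp4a32 at 19.2 ± 4.06 and Cyp4a31 at 9.72 ± 5.32. In this order Ehhadh and Cyp4a10 were both above Hsd17b4. With low iron Acaa1b (518 ± 69.3) and Cyp4a14 (281 ± 63.9) again led, and Cyp4a10 (148 ± 13.2), Hsd17b4 (126 ± 23.7), Ehhadh (123 ± 29.1) and Cyp4a12a (106 ± 39.6) overlapped from each to the next. Dividing by all annotated exon bases instead, a choice made after the data were seen, put Cyp4a14 above Acaa1b in the high-iron diet and lowered Acaa1a from 47.7 to 19.0 CPM per kb there, where the annotation includes transcripts with retained introns.

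**Figure D4:**
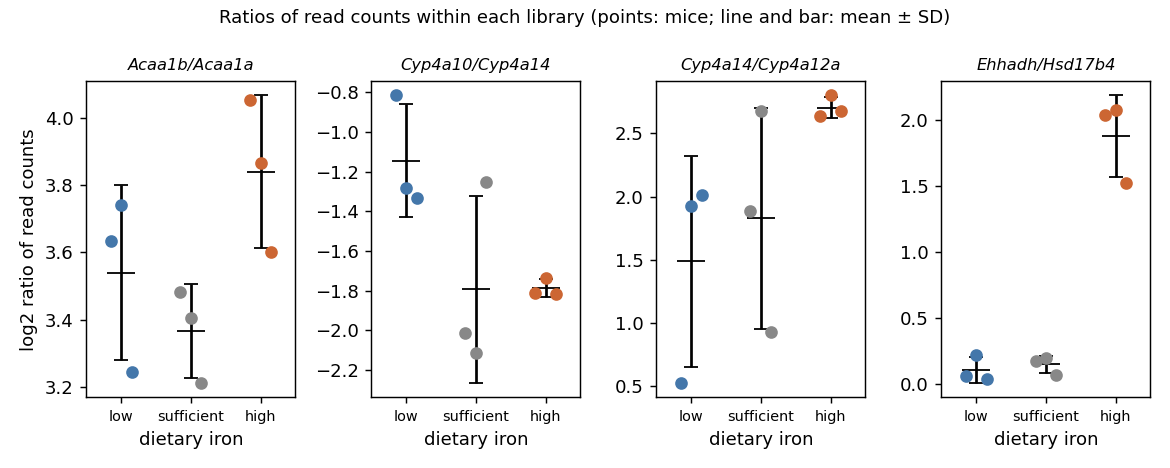
Log2 ratios of read counts within each library for 4 pairs of genes, by dietary iron, with points for mice and mean ± SD (n = 3), each panel on its own axis that does not start at 0. In the Ehhadh/Hsd17b4 panel the 3 high-iron points lie above all others, and in the other 3 panels at least 2 of the diets overlap.

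The high-iron mice kept the same order for most of the genes. Replicate 8 was the highest of the 3 for all 9 genes, and 7 genes (all but Acaa1a and Hsd17b4) had the order 8, 4 and 12, with Rn45s-rich replicate 12 the lowest. In the low-iron diet replicate 5 was the highest for 5 genes, and in the sufficient diet replicate 6 was the highest for 5 genes. Over the 9 libraries, log2 CPM of Acaa1b and Cyp4a10 correlated at r = 0.977, and that of Ehhadh and Cyp4a14 at 0.945. For deviations from the diet means these values were 0.852 and 0.813. Ehhadh and Hsd17b4 correlated at 0.149 over the 9 libraries but at 0.826 in their deviations from the diet means, so mice with more Ehhadh than their group also tended to have more Hsd17b4. Hsd17b4 and Cyp4a12a moved in opposite ways within diets (-0.859). These values are descriptions over 9 libraries that share their depth and scaling.

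Genes outside the 9 with the most similar pattern were taken by Pearson correlation of log2 CPM over the 9 libraries among 10989 tested genes of at least 1 CPM on average. For Ehhadh these were Acot1, an acyl-CoA thioesterase gene (r = 0.956), Hsd17b11, which encodes a lipid-droplet dehydrogenase (0.944), and the transporter gene Abcc3 (0.939). For Cyp4a10 they were Abhd6, a monoacylglycerol lipase gene (0.991), the glutathione transferase gene Gsta2 (0.981) and the mitochondrial ribosome gene Mrpl35 (0.966). For Cyp4a12a they were Galt of galactose metabolism (0.994), Mapkapk5 (0.988) and Cpsf4 (0.983). For Hsd17b4 they were the chaperonin gene Hspd1 (0.964), BC003331 (0.919) and the peroxisomal protease gene Lonp2 (0.917). No gene was named for more than 1 of these 4.

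Other genes of peroxisomal fatty acid oxidation, 27 of them tested, mostly had small positive values. For high against sufficient iron 22 of the 27 had a positive log2 fold change, 0 passed the test, 8 were higher and 1 lower at an unadjusted p under 0.05 (4.16% of all genes were higher at that level), and the median log2 fold change was 0.23, beside -0.01 over all genes. Eci2, an enoyl-CoA isomerase gene, was at 178 ± 27.2 against 106 ± 8.02 CPM (0.74 ± 0.14, adjusted p = 0.0742).

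For low against sufficient iron 0 of the 27 passed, 6 were higher and 1 lower unadjusted (5.79% of all genes were higher), with a median of 0.17. Pecr, an enoyl-CoA reductase gene, was at 128 ± 7.07 against 89.3 ± 17.7 CPM (0.52 ± 0.15, adjusted p = 0.446). For high against low iron 0 passed, 5 were higher and 3 lower unadjusted (4.22% of all genes were higher), with a median of 0.05.

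**Figure D5:**
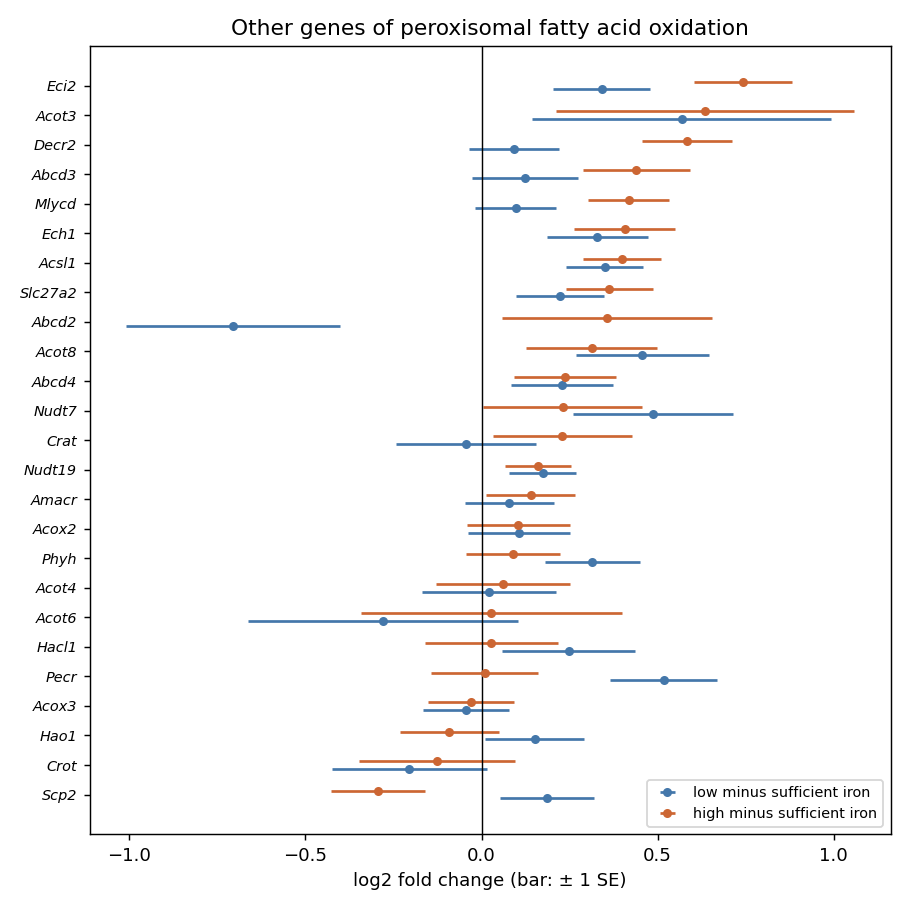
Log2 fold changes (± 1 SE) of 25 of the 27 other tested genes of peroxisomal fatty acid oxidation, ordered by the value for high minus sufficient iron (orange), with low minus sufficient iron in blue. Eci2 at the top has 0.74 and Scp2 at the bottom has -0.29, and 0 of the 25 passed the test in either comparison.

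Genes of peroxisome assembly and of the peroxisomal membrane gave smaller values. Of 22 tested, 0 passed in any of the 3 comparisons, and the medians were 0.18 for high against sufficient iron, 0.14 for low against sufficient iron and -0.01 for high against low iron. At an unadjusted p under 0.05, 3, 1 and 2 were higher and 0, 1 and 0 lower (4.16%, 5.79% and 4.22% of all genes were higher). Pex11a, whose product acts in peroxisome division, was at 55.4 ± 5.40 CPM with high iron, 39.4 ± 4.57 with sufficient iron and 26.5 ± 8.16 with low iron. Its log2 fold change of high against low iron was 1.05 ± 0.20 (adjusted p = 0.0544). Cat, the catalase gene, had a log2 fold change of 0.37 ± 0.12 for low against sufficient iron (adjusted p = 0.446).

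The receptor genes differed little. Ppara was at 285 ± 111 CPM with sufficient iron, 287 ± 73.8 with low iron and 324 ± 38.5 with high iron, a log2 fold change of 0.18 ± 0.26 for high against sufficient iron (adjusted p = 0.822) and 0.01 ± 0.26 for low against sufficient iron (0.989). Rxra had 0.13 (adjusted p = 0.763) and 0.08 (0.823) in these comparisons. Of 26 receptor and coregulator genes tested, 0 passed in any comparison, with medians of -0.03, 0.01 and 0.02 for high against sufficient, low against sufficient and high against low iron.

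Among 36 other known PPAR-alpha target genes, a list that shares 6 tested genes, Pex11a among them, with the peroxisomal and omega-oxidation lists, 1 rose on high iron. This was Lpl, the lipoprotein lipase gene, at 62.9 ± 8.79 against 22.9 ± 8.10 CPM with sufficient iron (1.45 ± 0.22, adjusted p = 0.0341) and against 17.8 ± 2.10 CPM with low iron (1.82 ± 0.23, adjusted p = 0.0125). Both calls were lost without high-iron replicate 8, where 0 of all genes passed in either comparison. The call against sufficient iron was also lost without high-iron replicate 4, where 0 of all genes passed. Unadjusted, 13 were higher and 1 lower for high against sufficient iron (4.16% of all genes were higher), with a median of 0.20. For low against sufficient iron 7 were higher and 1 lower (5.79% of all genes were higher), with a median of 0.09. Acot1 was at 36.3 ± 10.4 against 14.4 ± 2.58 CPM (1.34 ± 0.27, adjusted p = 0.0952) for high against sufficient iron. Fabp1, the liver fatty acid binding protein gene, had 0.64 ± 0.22 for low against sufficient iron (adjusted p = 0.446).

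The other genes of the Cyp4 family and of omega-oxidation had values on both sides of 0. Of 18 tested, 0 passed in any comparison, and the median was 0.06 for high against sufficient iron, with 3 higher and 1 lower unadjusted (4.16% of all genes were higher). Cyp4f14, a leukotriene omega-hydroxylase gene, was at 99.8 ± 7.91 against 145 ± 32.0 CPM (-0.54 ± 0.20, adjusted p = 0.456). For low against sufficient iron 5 were higher and 3 lower unadjusted (5.79% of all genes were higher), with a median of 0.14. Adh1, an alcohol dehydrogenase gene, had 0.42 ± 0.13 (adjusted p = 0.446).

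Because Cyp4a12a is male-biased, lists of sex-biased liver genes were set beside it. Of 18 tested male-biased genes 0 passed in any comparison, and the medians were 0.31 for low against sufficient iron, -0.10 for high against sufficient iron and -0.35 for high against low iron. Ugt2b1, a glucuronosyltransferase gene of this list, was at 421 ± 64.6 CPM with low iron, 293 ± 53.7 with sufficient iron and 279 ± 40.3 with high iron (0.52 ± 0.17 for low against sufficient iron, adjusted p = 0.446). Of 9 tested female-biased genes, Prlr, the prolactin receptor gene, fell on high iron, to 34.7 ± 4.86 from 74.4 ± 11.4 CPM with sufficient iron (-1.10 ± 0.17, adjusted p = 0.0381) and from 92.5 ± 19.3 CPM with low iron (-1.41 ± 0.18, adjusted p = 0.0125). The median of these 9 was -0.70 for high against sufficient iron, with 5 lower and 0 higher unadjusted, -0.65 for high against low iron, with 3 lower and 0 higher, and -0.23 for low against sufficient iron, with 1 higher and 0 lower. The share of all genes that were lower unadjusted is not given here, so nothing is read from these counts. Leaving out high-iron replicate 4, 8 or 12 brought the number of these 9 that passed to 0 in both high-iron comparisons, and leaving out low-iron replicate 5 or sufficient-iron replicate 6 or 10 brought it to 0 against sufficient iron.

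Markers of liver zones and of other cells were set beside these genes, and 2 of them passed the test. Alas2, the only tested erythroid marker of 6 and an enzyme gene of haem synthesis, fell on high iron to 34.1 ± 5.33 CPM, from 71.0 ± 9.75 CPM with sufficient iron (-1.06 ± 0.17, adjusted p = 0.0479) and from 102 ± 20.9 CPM with low iron (-1.58 ± 0.18, adjusted p = 0.0113). The pericentral marker Oat, an ornithine aminotransferase gene, stood at 346 ± 59.2 CPM with high iron and was lower than the 759.99 ± 179.7 CPM with low iron (-1.14 ± 0.19, adjusted p = 0.0328). Without high-iron replicate 8, 0 of all genes passed in either comparison with high iron, so the calls of these 2 markers were lost. Without high-iron replicate 4, 0 of all genes passed against sufficient iron and 1 against low iron. The 12 pericentral hepatocyte markers summed to 8751 to 10786 CPM in the low-iron libraries, 5242 to 7478 in the sufficient-iron and 6781 to 7648 in the high-iron libraries. Their median log2 fold change was 0.46 for low against sufficient iron, with 0 passing and 6 higher unadjusted (5.79% of all genes were higher). This stood beside the higher Cyp4a10 and Acaa1b levels of that diet. For high against sufficient iron the median was -0.14. For high against low iron it was -0.50, with Oat past the test (0.507% of all genes passed in either direction) and 6 lower unadjusted. The share of all genes that were lower unadjusted is not given here, so nothing is read from that count. The 11 Kupffer cell and macrophage markers summed to 122 to 288 CPM with low iron, 281 to 454 with sufficient iron and 241 to 302 with high iron, with medians of -0.64 (low) and -0.49 (high) against sufficient iron and 0.20 for high against low iron, and 0 of the 11 passed in any comparison. The 122 CPM came from Rn45s-rich low-iron replicate 1, where Cd5l, 1 of these markers, was at 22.7 CPM against 59.3 and 68.4 CPM in replicates 5 and 9. Of 7 adipocyte markers Lep and Plin1 had 0 reads in every library, and the list summed to 8.75 to 26.3 CPM over all libraries. The part of the zonal, erythroid and macrophage markers in the levels of the 9 genes was not tested.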

How the data were processed

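Liver RNA of 9 mice was sequenced with the Illumina TruSeq RNA kit on an Illumina HiSeq, per the labels' protocols. The deposited values are raw read counts per gene symbol, 1 table per library, with 5 category lines after the genes. FastQC is named in the submitters' processing notes, with mm10 and mm9 as builds. How reads were aligned and counted, and whether by strand, is not given in the sources used here. Category lines (no feature 13.4% to 25.9% and ambiguous 0.477% to 0.917% of uniquely aligned reads, 27.5 to 55.0 M alignments not unique) stayed out of library sizes and tests.

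Counts were filtered with filterByExpr and scaled by TMM, and a robust quasi-likelihood model with diet as the only term was fitted to all 9 libraries in edgeR 4.0.16 (R 4.3.3, limma 3.58.1). Benjamini-Hochberg adjustment covered all 13020 tested genes, with a threshold of 0.05. The fit was tested on simulated data. Replicate tables differed beyond sampling noise (chi-square per degree of freedom 40.5 to 494). P-values set the difference between diets against the spread between mice of the same diet.

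The 9 genes and the gene lists were chosen with earlier results of these data known. Named by rule were the 9 genes, Ppara and Rxra, of each list and comparison the genes past the test or else up to 3 with the lowest p, and the 3 genes most like each of Ehhadh, Cyp4a10, Cyp4a12a and Hsd17b4 (log2 CPM, prior count 2, predicted models left out). Sequences came from GENCODE M21 and RefSeq and were aligned with Biopython 1.88. Alternatives were other scaling, filters, thresholds, DESeq2 1.42.0, limma-voom, the 6 compared libraries alone, and libraries or abundant RNAs left out. Some genes that this rule takes are not reported here.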

Additional observations from a re-analysis of the deposited data

How the results depend on the processing

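No paired analysis was run. Each mouse has its own title number, and these numbers do not say whether mice of different diets formed sets. Over 20 alternatives per gene, the log2 fold changes of the 9 genes moved by less than the spread between mice in 180 of 180 cases for high against sufficient iron and 179 of 180 for high against low iron, but Hsd17b4 changed sign in 6 cases of the first and Cyp4a12a in 4 of the second. For low against sufficient iron 172 of 180 kept their direction and did not pass; 2 passed with DESeq2 and 6 turned sign. Cyp4a31 turned to 0.081 with limma-voom sample quality weights and 0.16 without sufficient-iron replicate 6 (-0.13 to 0.16 with 1 library left out). Without low-iron replicate 5 and sufficient-iron replicate 10 in turn, Ehhadh turned to -0.083 and -0.044 (range -0.083 to 0.29) and Cyp4a14 to -0.013 and -0.16 (range -0.16 to 0.32).

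Of 20 alternatives for high against sufficient iron, Ehhadh had an adjusted p under the threshold in 16, Acaa1b in 13, Cyp4a10 in 17, Cyp4a31 in 3, Cyp4a14 in 2 and Cyp4a32 in 1. As the 9 genes were selected on their high-iron differences, such counts describe the effect of the processing and are no test of those differences. Counts of the 9 genes past the threshold for high against sufficient iron (3), high against low iron (1) and low against sufficient iron (0) were 6, 5 and 2 with DESeq2. For high against low iron the count was 3 with sample quality weights and 2 each with the 6 compared libraries alone, with an adjusted p under 0.1 and without both Rn45s-rich libraries. Leaving out 1 library gave 0 to 3, 0 to 2 and 0 to 0. Over all genes the counts were 28, 66 and 0. They became 215, 365 and 105 with DESeq2, 92, 378 and 2 with sample quality weights, 17, 31 and 1 without both Rn45s-rich libraries, and 66 and 168 in the first 2 comparisons with an adjusted p under 0.1. No filter gave 45 for high against sufficient iron. Leaving out 1 library gave 0 to 56, 0 to 112 and 0 to 1. The cause was not tested. The depth of Cyp4a31 and Cyp4a32, under 40 CPM, and 3 mice per diet limit what could be detected. The genes most like Ehhadh, Cyp4a10, Cyp4a12a and Hsd17b4 were the same with a prior count of 0.5.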
